A study of Mus musculus with 2 samples.

Results

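Esr2 nuclei with low oxytocin are the neurons of the mouse paraventricular hypothalamus (PVH) in which the transcript of oestrogen receptor beta was read at least 2 times without a high level of oxytocin. Of 6173 deposited barcodes, 6157 held at least 500 genes and 4904 of those carried exactly 1 hashtag, and 50 of the 4904 (1.02%, Clopper-Pearson 95% interval 0.758 to 1.34) met the rule. They were chosen by measured counts: at least 2 unique molecular identifiers (UMIs, 1 for each captured transcript) of Esr2, at most 1 summed over Gad1, Gad2 and Slc32a1, fewer than 4 of Sst, and fewer than 10 each of Oxt and Avp. Of 76 one-tag nuclei with 2 or more Esr2 UMIs, 21 were removed by the Oxt limit, 4 by the limit on GABAergic markers, and 1 each by those on Sst and Avp, with 1 nucleus over more than 1 limit. The 7 genes of the rule are described here and counted in no comparison.

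PVH nuclei were collected at 4 weeks of age from mice that all carried Sim1-Cre and a GFP reporter on the nuclear envelope, so that nuclei of cells with a history of Sim1-Cre were marked, and GFP-positive nuclei were sorted by flow cytometry. The mice were 7 Sim1-Cre; Sun1-GFP animals, 4 Sim1-Cre; Sun-GFP; Otpfl/+ animals, in which Cre removes 1 copy of the homeobox gene Otp, and 6 Sim1-Cre; Sun1-GFP; OtpQ153R/+ animals, whose 1 mutant Otp allele encodes the Q153R change. Nuclei of the genotypes were marked with hashtags named Ctrl, KD and Q153R and read in 1 library, and the KD hashtag was assigned to the floxed animals because it was the one left over. Mice were pooled under each hashtag, so each genotype is 1 sample, no test over animals is possible, and every interval below covers counting error only, with the UMIs of a nucleus taken as independent.

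Oestrogen receptor beta, the product of Esr2, is a nuclear receptor that binds oestradiol and regulates transcription in the nucleus. In the rodent PVH it is described as the main oestrogen receptor, with Esr1 described as sparse. It is known both in part of the oxytocin neurons and in neurons that send axons to the brainstem and spinal cord. The title of the series names the regulation of Mc4r, the melanocortin receptor through which the PVH limits food intake, as the study's question.

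The 50 nuclei held 390746 UMIs, with a median of 7021.5 per nucleus (2267 to 19207), against 5237 in the 4854 other one-tag nuclei and 6952 in the 154 nuclei with at least 10 Oxt UMIs, called Oxt nuclei below. Ctrl supplied 16 of the 50, KD 17 and Q153R 17. Sex was mixed unevenly over the pools: 10 of 16 members in Ctrl had at least 3 Xist UMIs with none from the Y chromosome, as did 17 of 17 in KD and 8 of 17 in Q153R. Markers of astrocytes, oligodendrocytes and GABAergic neurons were lower than in the other nuclei. Of 7 astrocyte markers, 6 (Aqp4, Gja1, Aldh1l1, Slc1a3, Agt and Gfap) had no UMI, and the summed level of the 7 was 17.9 CPM (UMIs of the gene per 1000000 UMIs of the group; 0 to 32.2 over the pools) against 112 (77.3 to 143) in the other nuclei. Of 5 GABAergic markers, Dlx1 and Dlx6os1 had none and the sum was 12.8 CPM (8.05 to 16.1) against 108 (70.8 to 143), in part by the rule. Of 6 oligodendrocyte markers, Mog, Mobp and Opalin had none and the sum was 35.8 CPM (16.1 to 56.2) against 137 (75.6 to 168). Microglial markers, with Csf1r at 0, summed to 69.1 CPM (28.1 to 96.6) against 71.2 (64.7 to 76.2). Those of oligodendrocyte precursors were higher, at 74.2 CPM (16.1 to 155) against 40.7 (34.0 to 43.4), all from Vcan, with Pdgfra, Cspg4 and Olig1 at 0. Mural markers were higher too, at 33.3 CPM against 4.56, all from Abcc9, with Pdgfrb and Rgs5 at 0. Endothelial markers summed to 12.8 CPM against 6.42, from 5 UMIs, with Cldn5 and Flt1 at 0. Ependymal markers stood at 5.12 CPM against 4.12, tanycyte markers at 5.12 against 12.3 and leptomeningeal markers at 0 against 0.839. Neuronal markers summed to 2255 CPM against 2915. Sim1, the transcription factor gene whose Cre marked the cells, was read in 45 of the 50 nuclei, at 402, 520 and 749 CPM in Ctrl, KD and Q153R. Over all pools Sim1 stood at 555 CPM, against 447 in the other one-tag nuclei and 907 in the Oxt nuclei. Among the other markers of the Sim1 lineage, Otp was higher than in the other one-tag nuclei (110 against 73.3 CPM) and Arnt2 lower (159 against 265). The vesicular glutamate transporter Slc17a6 was read in 35 of the 50.

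The values that chose the nuclei were small counts. Esr2 was read 2 times in 35 of the 50, 3 times in 7, 4 times in 4, 5 times in 3 and 6 times in 1. The summed level was 322 CPM in Ctrl, 295 in KD and 370 in Q153R, against 7.01, 5.93 and 8.29 in the other one-tag nuclei. Just outside the minimum stood 66 nuclei that met every other limit with exactly 1 Esr2 UMI. Oxt was not read in 22 of the 50 and was read once in 15, and the highest nucleus held 8 UMIs. The share of members with an Oxt UMI was 56.0% (24.8% with every nucleus thinned to 2000 UMIs), beside 44.8% (19.2% thinned) in 239 nuclei with at least 4 GABAergic-marker UMIs and a median depth of 6210, which should lack the peptide. The Oxt UMIs of most members are therefore near the level that nuclei of another type carried. Just outside that limit, 20 nuclei met every other limit with 2 or more Esr2 UMIs and at least 10 of Oxt.

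Sequence bears on these nuclei through the motif that oestrogen receptors bind, whose palindrome holds 2 copies of AGGTCA facing each other; other nuclear receptors bind the single copy. The letters AGGTCA or the reverse complement TGACCT were searched in RefSeq windows of 300 bases around gene starts on GRCm38.p6, 250 of them before the start. Of 32851 windows, 16.3% held a match, and of the 13542 windows of genes measured in the comparison with other nuclei, 12.2% did. The share was 10.6% of 218 windows of genes at least 2-fold higher in the Esr2 nuclei and 15.1% of 641 windows of genes at least 2-fold lower. A pair of upstream stretches is shown, that of the gene that defines the nuclei and that of a receptor gene from the leading list that holds a match, with the match in capitals.
Esr2, chr12:76177260-76177509, minus strand: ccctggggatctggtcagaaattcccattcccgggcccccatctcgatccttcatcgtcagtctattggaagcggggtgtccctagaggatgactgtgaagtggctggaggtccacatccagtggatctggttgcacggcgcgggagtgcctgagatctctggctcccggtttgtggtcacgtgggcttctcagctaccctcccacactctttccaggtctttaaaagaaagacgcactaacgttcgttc
Prokr2, chr2:132385448-132385697, minus strand: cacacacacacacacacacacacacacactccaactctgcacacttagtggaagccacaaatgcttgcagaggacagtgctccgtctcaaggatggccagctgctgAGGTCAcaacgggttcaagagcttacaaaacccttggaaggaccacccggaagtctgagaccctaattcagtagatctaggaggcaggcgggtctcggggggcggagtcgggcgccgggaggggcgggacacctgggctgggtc
The Esr2 stretch holds none of these letters on either strand, and the Prokr2 match lies 144 bases before the annotated start. A match is a run of letters and was not tested for binding.

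The 4 genes given as markers of these neurons beside Esr2 were present to different extents. Foxp2 (chr6:14901349-15441977), a forkhead transcription factor gene, was read in 39 of the 50 nuclei, at 1006, 1975 and 1554 CPM in Ctrl, KD and Q153R, against 266, 309 and 280 in the other nuclei. It was above the other nuclei in every pool, and it was not particular to the Esr2 nuclei, since Oxt nuclei held 2015, 2181 and 1992 CPM. Hs3st3b1 (chr11:63885792-63922290), which encodes an enzyme that adds a sulfate to the 3-O position of heparan sulfate, was read in 15 nuclei (30%, against 1.67% of the GABAergic-marker nuclei), at 8.05, 63.3 and 72.5 CPM against 6.47, 5.10 and 4.72. The Ctrl value rests on 1 nucleus. Lhx2 (chr2:38339281-38369733), a LIM homeobox gene, gave 8 UMIs in 7 nuclei, 0 CPM in Ctrl, 28.1 in KD and 32.2 in Q153R, against 4.93 in the other nuclei. It was not particular to them, since the nuclei that clustered with 25 of the 50 without being members held 39.7 CPM, in 40 of 218 nuclei, beside 25.6 in those 25. The same 218 nuclei held Hs3st3b1 at 42.8 CPM, in 41 nuclei, beside 96.0 in the 25. Mc4r (chr18:66857704-66860506) gave 3 UMIs in 3 nuclei, 1 in each pool, or 7.68 CPM (1.58 to 22.4) against 2.70. The ratio of 2.84 has an interval of 0.573 to 8.64, so a difference in Mc4r was not detectable at this depth.

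Compared with the 4854 other one-tag nuclei, the Esr2 nuclei had higher levels of the guidance receptor Robo2, the cofactor Lmo4 and the receptors Prokr2, Prlr and Cckar, and lower levels of Fam19a1, Agtr1a and Calcr. A gene was counted when its summed CPM, with 5 CPM added to both sides, differed by at least 2-fold, among genes with at least 50 UMIs over both groups. Of 14259 genes, 255 were higher (1.79%) and 746 lower (5.23%), and 44 of the 255 and 309 of the 746 were past 2-fold in each of the 3 pools on its own. The count of 1001 genes in both directions was 1575 without the nuclei of Ctrl, 1546 without KD and 1526 without Q153R, and the cause was not tested. All 20 genes named by the ranking stayed past 2-fold each time. The ranking took only genes past 2-fold in each pool on its own, so this was largely set by the choice. Robo2 (chr16:73891839-74411825), a receptor for the axon guidance cue Slit, was read in 47 of 50 nuclei, at 2559, 3655 and 3027 CPM in Ctrl, KD and Q153R against 655, 781 and 777. The pool levels did not overlap, which was largely set by that choice, and the ratio was 4.26 (4.02 to 4.52). Nwd2 (chr5:63649102-63810546) stood at 427, 408 and 394 CPM against 97.5, 98.7 and 98.4, a ratio of 4.17 (3.53 to 4.90) that was nearly the same in each pool. Lmo4 (chr3:144188530-144205220), a LIM-only cofactor that binds the partners of LIM homeobox proteins, stood at 104.6, 155 and 145 CPM against 27.9, 29.3 and 28.9. The long noncoding-type transcripts Gm43154 (113, 141 and 185 CPM against 18.2, 29.4 and 26.8) and AC159282.1 (201, 162 and 225 against 43.8, 41.5 and 41.8) shared this pattern.

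Other leading genes rested on few counts. Prokr2 (chr2:132337733-132385447), a receptor for the prokineticins, gave 10 UMIs in 7 nuclei, at 32.2, 14.1 and 32.2 CPM against 2.61, 1.31 and 2.30. The ratio was 12.1 (5.51 to 23.9). Abcc9 (chr6:142587862-142702315), which encodes a regulatory subunit of ATP-sensitive potassium channels, gave 13 UMIs in 10 nuclei, at 24.1, 28.1 and 48.3 CPM against 2.43, 3.44 and 2.42. It is also a marker of mural cells, whose other 2 markers, Pdgfrb and Rgs5, were at 0 in these nuclei. Arhgap28 (chr17:67842713-68004120), which encodes a GTPase-activating protein, gave 16 UMIs in 7 nuclei, with 16.1, 84.3 and 16.1 CPM against 3.14, 1.42 and 4.08. The remaining genes chosen by the same ranking were 0610040J01Rik (51.2 CPM against 6.20), Gm43122 (74.2 against 12.2) and Gm14507 (25.6 against 2.08).

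**Figure D1:**
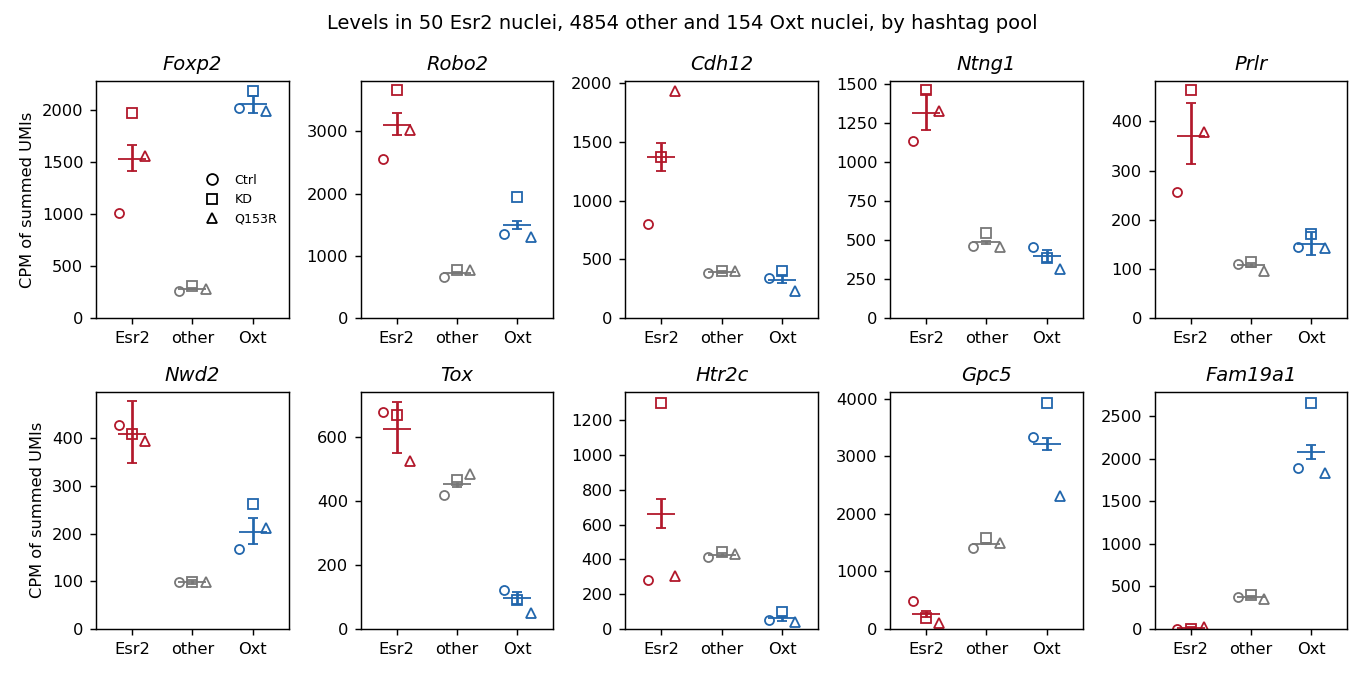
Levels of 10 genes in the 50 Esr2 nuclei, the 4854 other one-tag nuclei and the 154 Oxt nuclei, as CPM of summed UMIs on linear axes from 0. Dashes are the level over all pools with its 95% Poisson interval and symbols are the 3 hashtag pools. For Robo2, Cdh12 and Ntng1 every pool of the Esr2 nuclei lies above every pool of both other groups. For Gpc5 and Fam19a1 every pool lies below. Robo2, Cdh12, Gpc5 and Fam19a1 were named by rankings that required 2-fold in each pool.

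The genes that were low in the Esr2 nuclei included marks of other PVH neurons. Fam19a1 (chr6:96113154-96657198), which encodes a small secreted protein of the brain, gave 3 UMIs in 2 nuclei, at 0, 0 and 24.2 CPM in Ctrl, KD and Q153R against 369, 398 and 355 in the other nuclei. Agtr1a, an angiotensin II receptor gene, gave no UMI in the 50 nuclei and stood at 75.1 CPM in the others, at least 9.79-fold lower when a floor of 3 counts is taken over the group. Calcr, the calcitonin receptor gene, gave 3 UMIs, 7.68 CPM against 105.3. Nfia and Nfib, transcription factor genes of the nuclear factor I family, stood at 2.56 and 7.68 CPM against 85.4 and 92.2. Il1rapl2, an accessory protein gene of the interleukin-1 receptor family, stood at 7.68 CPM against 340. Gfra1, a co-receptor gene for the neurotrophic factor GDNF, and Prex2 gave 1 UMI each, 2.56 CPM against 68.4 and 56.5.

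Among the receptors of the nuclear hormone family, several other than the one that chose the nuclei were low in the Esr2 nuclei. Of 14 measured members 1 was at least 2-fold higher and 5 lower, where 1.79% and 5.23% of all genes were. The median log2 ratio was -0.66, where -0.03 was the median over all genes. The mineralocorticoid receptor Nr3c2 stood at 80.5, 141 and 40.3 CPM in Ctrl, KD and Q153R against 325, 363 and 390 in the other nuclei. The glucocorticoid receptor Nr3c1 stood at 121, 21.1 and 32.2 CPM against 121, 124 and 130, so in Ctrl the level was that of the other nuclei. The thyroid receptor Thrb stood at 107 CPM against 237, and the retinoic acid receptor Rarb, from 2 UMIs, at 5.12 against 19.0. Esr1, the other oestrogen receptor, gave 9 UMIs in 4 nuclei, 23.0 CPM against 41.1, a ratio of 0.560 with an interval of 0.255 to 1.07. In the other nuclei Esr1 was read more than Esr2, with 1127 UMIs against 193. Rorb (chr19:18930605-19111196), an orphan receptor related to the retinoic acid receptors, was the member that was higher, at 346, 541 and 676 CPM against 183, 155 and 143. None of 8 measured cofactors and oestrogen-linked genes was past 2-fold in either direction, and Greb1, a classical oestrogen target in breast cells, gave 5 UMIs, 12.8 CPM against 4.85.

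Of 42 measured receptors of energy balance and neuroendocrine input, 2 were higher and 13 lower, where 1.79% and 5.23% of all genes were. Prlr (chr15:10177238-10349180), the prolactin receptor gene, stood at 258, 464 and 378 CPM in Ctrl, KD and Q153R against 110, 115 and 95.4, and was read in 36 of 50 nuclei. The lowest pool of the Esr2 nuclei lay above the highest of the others, and the ratio was 3.45 (2.90 to 4.08). Cckar, a receptor for the gut peptide cholecystokinin, gave 13 UMIs in 10 nuclei, at 8.05, 35.1 and 56.4 CPM against 4.49, 5.81 and 6.63. The 13 that were lower included Calcr and Ghr, the growth hormone receptor gene (154 CPM against 365). Of 27 measured genes of melanocortin signalling none was higher, and 1, Pomc, was counted as lower on no UMI in the members and 6.90 CPM in the others, which is under the floor of 3 counts. Of 26 measured neuropeptide and peptide-processing genes, Pdyn, the precursor of dynorphin, was higher (25.6 CPM from 10 UMIs against 9.12) and 6 were lower, among them Crh (15.4 against 37) and Trh (7.68 against 57.0).

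Genes of transcription factors and the cell surface gave further contrasts. Of 53 measured factors of the PVH and of the forkhead and LIM families, 4 were higher (Foxp2, Lhx2, Lmo4 and Tshz3) and 21 lower, beside 1.79% and 5.23% of all genes, with a median log2 ratio of -0.51. Foxp1, the relative of Foxp2, was among the 21, at 104.6, 84.3 and 80.5 CPM against 236, 232 and 255. Of 30 measured genes of heparan sulfate and its core proteins, 3 were higher and 5 lower. Hs3st3a1 (chr11:64435332-64522841), the near neighbour and paralog of Hs3st3b1, gave 9 UMIs in 6 nuclei, 23.0 CPM against 3.07, and reads of such close paralogs could be shared between them. Ndst3, an enzyme of an earlier sulfation step, stood at 314, 316 and 499 CPM against 152, 146 and 169. Gpc5 (chr14:115092215-116525179), a glypican that carries heparan sulfate on the cell surface, stood at 483, 190 and 104.7 CPM against 1407, 1572 and 1487. Every pool of the Esr2 nuclei was thus below the other nuclei in this core protein.

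Adhesion and guidance genes lay on both sides. Of 68 measured, 6 were higher (Cdh7, Cdh12, Sema6d, Robo2, Ntng1 and Cntn6) and 12 lower, again beside 1.79% and 5.23% of all genes, as for the lists that follow. Cdh12 (chr15:20449265-21589533), a cadherin, stood at 805, 1370 and 1932 CPM in Ctrl, KD and Q153R against 388, 398 and 398, and was read in 44 of 50 nuclei. Ntng1 (chr3:109780040-110144011), a netrin anchored to the axon membrane, stood at 1135, 1462 and 1328 CPM against 461, 546 and 458. Both were higher than the other nuclei in each pool. Of 37 measured genes of glutamate and GABA transmission none was higher and 2 were lower, Gabra4 among them, and of 47 channels none was higher and 3 were lower. Of 17 activity genes none was higher and Vgf was lower.

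The Oxt nuclei also carried Esr2, with an Esr2 UMI in 44 of 154 (28.6%), against 1.67% of the GABAergic-marker nuclei. Of 5327 genes measured against them, 120 were at least 2-fold higher in the Esr2 nuclei with low Oxt (2.25%) and 217 lower (4.07%), and 52 and 84 were past 2-fold in each of the 3 pools. Cdh12 was again higher, with 346, 400 and 229 CPM in the Oxt nuclei of Ctrl, KD and Q153R and a ratio of 4.16 (3.64 to 4.76). Htr2c, the serotonin receptor through which appetite-suppressing drugs act, stood at 282, 1300 and 306 CPM in the Esr2 nuclei against 52.2, 95 and 39.2. A single nucleus held 21.3% of the Htr2c UMIs of the 50. Tox, a chromatin-binding factor of the HMG-box family, stood at 676, 668 and 523 CPM against 122, 91.7 and 49.0. Trhde, an ectoenzyme that degrades thyrotropin-releasing hormone, stood at 612, 422 and 886 CPM against 160, 180 and 114. For these 3 genes the 3 pool levels of the Esr2 nuclei all lay above the 3 of the Oxt nuclei. They and Cdh12 were named by a ranking that took only genes past 2-fold in each pool, so this was largely set by the choice. Single nuclei overlapped: Htr2c was read in 27 of 50 and 23 of 154 nuclei and Tox in 38 and 33. All nuclei that were not members held Htr2c at 427.5 CPM and Tox at 452, so the Oxt nuclei were the low group for both. Htr2c was read in 41.5% of those nuclei and 56.1% of the GABAergic-marker nuclei, so it was not particular to the Esr2 nuclei.

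The same ranking against the Oxt nuclei named Arpp21 (177 CPM against 28.3), Unc13c (200 against 32.6), Dchs2 (79.3 against 17.1), Kctd16 (187 against 48.8), Rorb (522 against 146), Gm43154 (146 against 40.3), Plcxd3 (266 against 75.4) and Pde3a (182 against 51.4) as higher. Unc13c and Kctd16 were lower in the Esr2 nuclei than in all other nuclei (388 and 369 CPM), and the Oxt nuclei were lower still. With 3 or more Esr2 UMIs as the minimum, Kctd16 and Plcxd3 were no longer past 2-fold, at 1.23 and 1.41. Among genes lower than in the Oxt nuclei, Gpc5 stood at 256 CPM against 3214 and Fam19a1 at 7.68 against 2076. Zeb2, a zinc-finger transcription factor gene, gave 4 UMIs in 1 nucleus, 10.2 CPM against 304. Arhgap10, Rspo3 and Clec18a gave no UMI, which made them at least 11.5-fold, 7.70-fold and 6.14-fold lower with a floor of 3 counts over the group. Galnt14 stood at 10.2 CPM against 222 and Gulp1 at 7.68 against 123. Over all genes 2.25% were higher and 4.07% lower. In the fixed lists, 3 of 16 heparan sulfate genes were higher (Hs3st4, Hs3st5 and Ndst4) and 2 lower (Gpc3 and Gpc5). Of 58 adhesion and guidance genes 12 were higher and 6 lower, with a median log2 ratio of 0.28 against -0.01 over all genes.

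Levels along the counts that set the limits show where the nuclei sit between these groups. The 66 nuclei with exactly 1 Esr2 UMI, which the rule left out, had a median depth of 7179 UMIs. They held Foxp2 at 1086 CPM, Robo2 at 2168, Cdh12 at 1157 and Ntng1 at 1217, against 174, 721, 396 and 538 in the 3622 nuclei with no Esr2 UMI and the same limits. The 35 members with 2 Esr2 UMIs held 1214, 2723, 1304 and 1378 CPM of these genes, and the 15 with 3 or more held 2059, 3738, 1476 and 1212. Among these 4 groups with low Oxt, Foxp2 and Robo2 were highest where Esr2 was read most, and Ntng1 was not. Set make-up and depth moved with the count: of the 15 nuclei, 8 were in the second of the sets described below and 1 was outside the sets, and median depth was 6470 UMIs in the 35 and 9290 in the 15. Their part in the order was not tested.

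Nuclei with both Esr2 and high Oxt shared some of these genes. The 20 nuclei with at least 2 Esr2 and 10 Oxt UMIs that met the other limits held Cdh12 at 860 CPM, Ntng1 at 953, Robo2 at 2074, Hs3st3b1 at 87.1 and Lhx2 at 38.1. The 125 with at least 10 Oxt UMIs and 0 or 1 of Esr2 held 225, 304, 1385, 10.0 and 5.58 CPM. In Gpc5 (4165 and 3183 CPM) and Fam19a1 (1111 and 2269) both Oxt groups were high, and in Htr2c (109 and 50.2) and Tox (103 and 97.1) both were low, far from the members' 660 and 624 CPM. Among nuclei with at least 10 Oxt UMIs, Cdh12, Ntng1 and Robo2 were thus higher in those with at least 2 Esr2 UMIs. Cluster moved with these values: 18 of the 21 Oxt nuclei with 2 or more Esr2 UMIs lay in the cluster that held 17 of the members, described below, where the members had Tox at 320 CPM and Hs3st3b1 at 22.8 and nuclei with fewer than 10 Oxt UMIs that were not members had Tox at 152.6 CPM. Its part in the contrasts was not tested.

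**Figure D2:**
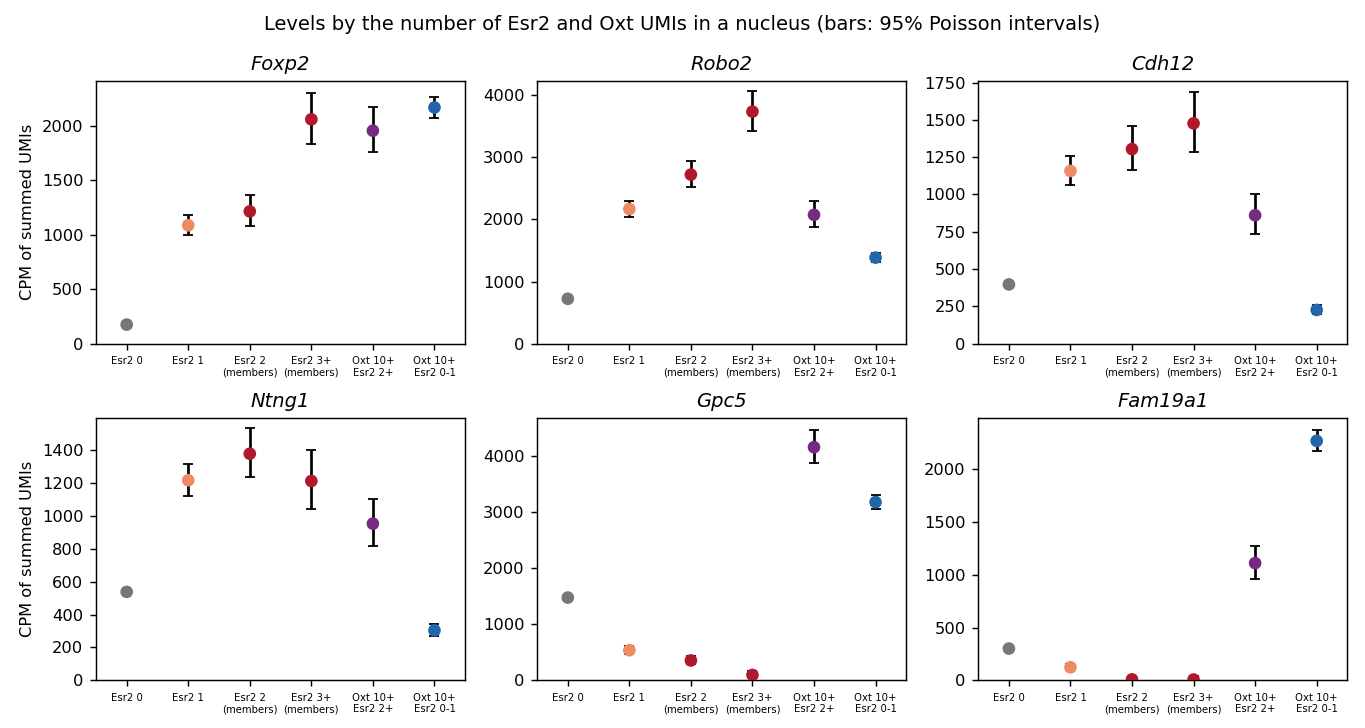
Levels of 6 genes as CPM of summed UMIs in groups of nuclei set by their Esr2 and Oxt UMIs, with 95% Poisson intervals. Cdh12 and Ntng1 are higher in both groups with 2 or more Esr2 UMIs than in Oxt nuclei with 0 or 1, while Gpc5 is high in both Oxt groups (4165 and 3183 CPM) and low in the members (354 and 94.8).

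The 50 nuclei were not alike. When all 4904 one-tag nuclei were clustered without the rule genes and sex-linked genes, 25 of the 50 fell in 1 of 22 clusters, 17 in another and 8 were scattered over 7 others. These are called the first set, the second set and the remaining 8, and since clusters are made from the same counts, their differences are given as a description. A lower resolution also gave clusters with 25 and 17 members, and a higher one clusters with 25 and 16. The cluster of the first set held 243 nuclei and no Oxt nucleus. That of the second held 244 nuclei, of which 50 were Oxt nuclei, among them 18 of the 21 Oxt nuclei with 2 or more Esr2 UMIs. Both sets had Robo2 (3982 and 3250 CPM), Cdh12 (1716 and 1502) and Sim1 (634 and 611), and the remaining 8 had 387, 67.3 and 185 CPM. The nuclei of the same clusters that were not members shared much of this: 218 in the first cluster held Robo2 at 1648 CPM, Cdh12 at 850 and Ntng1 at 1940, beside 3982, 1716 and 2074 in the members there. The 227 in the second held Robo2 at 2542 CPM, Cdh12 at 1285, Ntng1 at 1017 and Foxp2 at 1962, beside 3250, 1502, 1017 and 2216 in the members. Prlr stood at 64.2 and 131 CPM in these nuclei, beside 461 and 320 in the members.

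The first set carried Rorb in 24 of 25 nuclei at 1172 CPM, against 120 in the second set and 0 in the remaining 8. By pool, the first set stood at 986, 1027 and 1586 CPM and the second at 35.5, 69.3 and 201 in Ctrl, KD and Q153R. Galntl6, an enzyme gene of the mucin-type O-glycosylation family, stood at 6824 CPM against 1057, with 4373 in the remaining 8, and Eda, the ligand ectodysplasin, at 947 against 166, with 370.0 in the 8. Pid1, a modulator of insulin signalling, stood at 672 CPM against 154, with 33.6 in the 8. Kirrel3 stood at 832 against 206 and Tox at 883 against 320, but the 8 held 555 and 841, and the nuclei of the first cluster that were not members held Tox at 1282. Hs3st3b1 was read in 11 nuclei of the first set and 4 of the second, at 96.0 and 22.8 CPM, and Arhgap28 in 7 and 0. Between the sets these genes were all higher in the first, and Rorb, Pid1, Hs3st3b1 and Arhgap28 were also low or at 0 in the remaining 8. The 218 nuclei of the first cluster that were not members held Rorb at 654 CPM, in 158 nuclei, and Hs3st3b1 at 42.8, in 41. Neither gene was thus particular to the members.

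The second set carried Cntn5, a contactin, in 16 of 17 nuclei at 2388 CPM, against 218 in the first set. The remaining 8 held 1985 CPM and all nuclei that were not members 2016, so the first set was the low one. Thsd7b (chr1:129273302-130219278) was read in all 17 at 2702 CPM against 423, with 33.6 in the 8 and 367 in all nuclei that were not members. Of these, the 227 in the second cluster held Thsd7b at 1157 CPM, in 183 nuclei. Thsd7b stood at 4118, 2439 and 2421 CPM in the second set and at 305, 585 and 276 in the first, in Ctrl, KD and Q153R. Grik1, a kainate receptor subunit, stood at 908 CPM against 186, with 790 in the 8, and Reln, the secreted matrix protein reelin, at 680 against 154. Hs3st4 stood at 543 against 64, with 29.5% of the UMIs of both sets in 1 nucleus. The nuclei of the second cluster that were not members held Hs3st4 at 325 CPM. Foxp2 was higher in the second set too, at 2216 CPM against 1344. Of 1331 genes measured between the sets, 65 were at least 2-fold higher in the first (4.88%) and 84 in the second (6.31%). The Oxt level of the second set, 194 CPM, lay near the 141 of the first (ratio of first to second 0.725, 0.404 to 1.28), while the nuclei of its cluster that were not members held 1816.5 CPM, or 138 where those with 10 or more Oxt UMIs were left out.

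In the remaining 8 nuclei Foxp2 was read in 1 (16.8 CPM), and Hs3st3b1, Lhx2, Mc4r, Lmo4 and Prokr2 gave no UMI. A count of 0 there has an interval up to 62.0 CPM. Lhx2 (25.6 and 22.8 CPM in the first and second sets), Mc4r (12.8 and 5.71) and Prokr2 (32.0 and 28.6) lay below that bound, so no difference can be read from them. Hs3st3b1 lay above it in the first set only (96.0 and 22.8), and Lmo4 in both (211 and 114). The 8 held Esr2 at 320 CPM, and 1 of them had 3 or more Esr2 UMIs. The marker Foxp2 was thus read in 38 of the 42 nuclei of the sets and in 1 of these 8, while the markers Hs3st3b1 and Lhx2 were read in 15 and 7 of the 42.

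**Figure D3:**
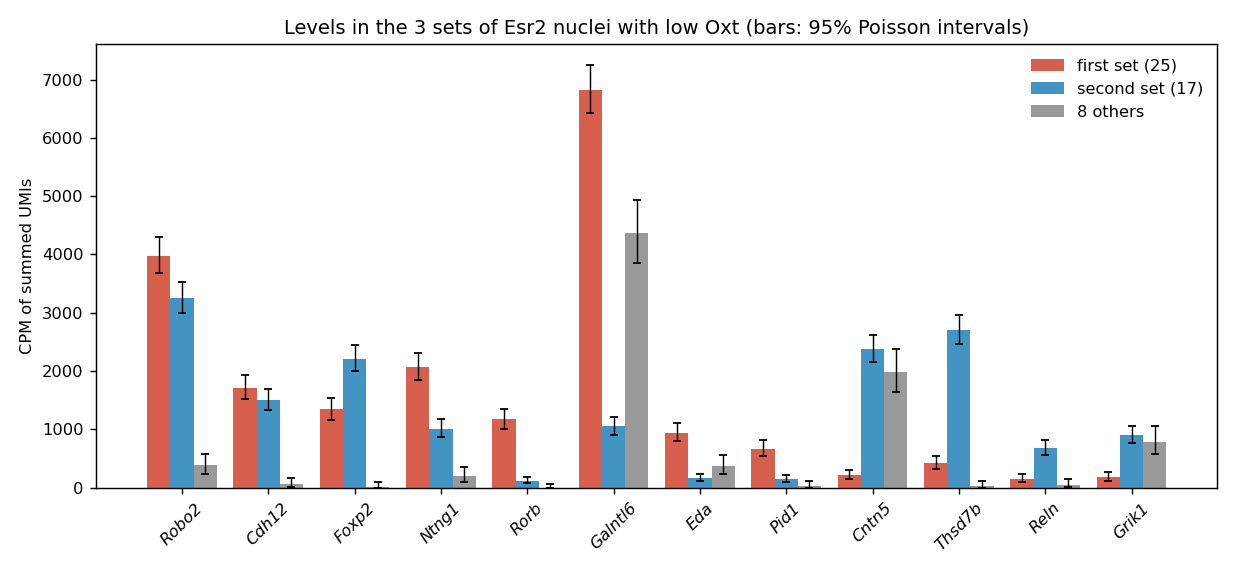
Levels of 12 genes in the first set (25 nuclei), the second set (17) and the remaining 8, as CPM of summed UMIs with 95% Poisson intervals. Robo2 and Cdh12 are high in both sets and low in the 8, Rorb and Galntl6 are higher in the first set, and Cntn5 and Thsd7b are higher in the second.

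The share of Esr2 nuclei was compared between pools. They made up 16 of 1966 one-tag nuclei in Ctrl (0.814%, 0.466 to 1.32), 17 of 1347 in KD (1.26%, 0.737 to 2.01) and 17 of 1591 in Q153R (1.07%, 0.624 to 1.71). The odds ratio against Ctrl was 1.56 (0.737 to 3.31) for KD and 1.32 (0.623 to 2.79) for Q153R, and both intervals include 1. Under a stricter hashtag call, with 14 Esr2 nuclei among 2274, both turned below 1, to 0.916 and 0.796. Median depth was 5917 UMIs in the other nuclei of KD, 5335.5 in Ctrl and 4630 in Q153R. With nuclei thinned to 2000 UMIs, an Esr2 UMI was expected in 1.34%, 1.42% and 1.42%, and 2 or more in 0.214%, 0.197% and 0.305%, of 1282, 954 and 1165 nuclei of Ctrl, KD and Q153R, a smaller set than that of the shares above. A smaller number of such cells and fewer transcripts per cell cannot be told apart in these shares.

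The make-up of the Esr2 nuclei also differed between pools. The first set, the second set and the remaining 8 held 7, 2 and 7 nuclei in Ctrl, 10, 7 and 0 in KD, and 8, 8 and 1 in Q153R. Counted without the remaining 8, the odds ratio against Ctrl was 2.78 (1.17 to 7.10) for KD and 2.21 (0.916 to 5.69) for Q153R. This count was made after the sets were seen, both ratios share the Ctrl nuclei, and with 1 pool per genotype the genotype, the mice and the sex mix cannot be told apart.

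**Figure D4:**
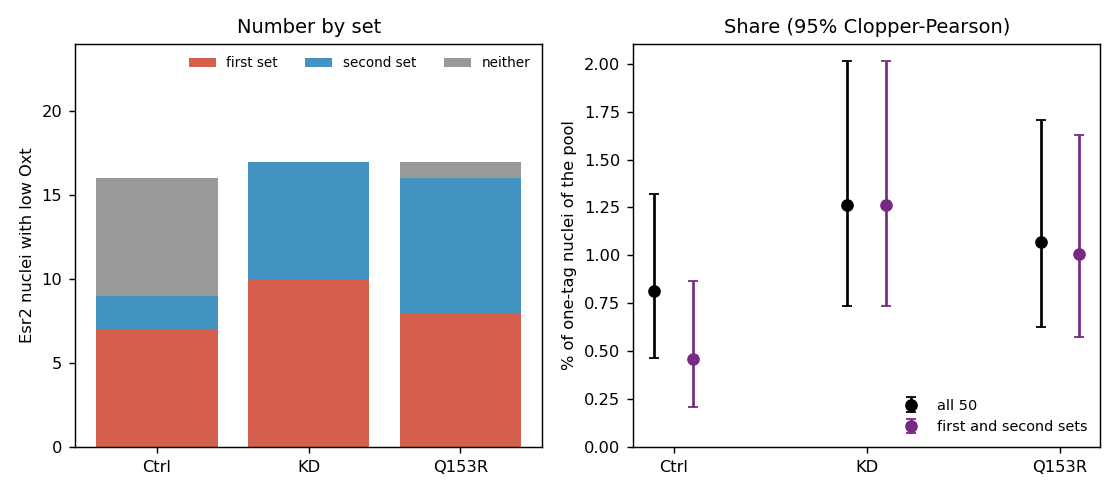
Left, the number of Esr2 nuclei with low Oxt in each hashtag pool by set, with a total of 16, 17 and 17. Right, their share of one-tag nuclei for all 50 and for the first and second sets alone, with 95% Clopper-Pearson intervals, which overlap between the pools in both cases.

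Otp, the gene altered in the mice, and its neighbour Wdr41 were examined first within the Esr2 nuclei. Otp (chr13:94875602-94885130) stood at 72.4, 105.4 and 152.96 CPM in Ctrl, KD and Q153R, and the ratios to Ctrl of 1.46 (0.597 to 3.77) and 2.11 (0.910 to 5.30) have intervals that include 1. In the 3015 other nuclei with a Sim1 UMI and at most 1 GABAergic UMI, the ratios were 1.60 and 2.06. Otp was therefore not low in nuclei labelled KD, and these UMIs, which are not resolved to an exon or a codon, check neither the floxed nor the point-mutant label. Wdr41 (chr13:94976344-95023314), which encodes a subunit of the C9orf72 complex, stood at 32.2, 316 and 96.6 CPM, a ratio of 9.82 (3.58 to 37.6) in KD, beside 5.93 (5.29 to 6.67) in the other Sim1 nuclei. It was read in 14 of 17 KD nuclei and 3 of 16 Ctrl nuclei. Within the first and second sets the KD ratio was 7.46 (2.39 to 37.5).

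Between nuclei labelled KD and Ctrl, 37 of 1023 measured genes were at least 2-fold higher (3.62%) and 46 lower (4.50%) in KD among all 50. Since 7 of the remaining 8 nuclei were in Ctrl and none in KD, level and make-up cannot be told apart in these values. Of the 83 genes, 38 were past 2-fold the same way in the first and second sets together. The KD nuclei are the same in both counts and only Ctrl nuclei drop out, so the counts are not independent. Lrrc4c, a synaptic adhesion gene that binds a netrin, stood at 1110 CPM in KD and 3018 in Ctrl, a ratio of 0.368 (0.304 to 0.444). It was 0.389 in the 2 sets together, 0.370 in the first set alone and 0.980 in the other Sim1 nuclei. In the second set, with 2 Ctrl nuclei, the Lrrc4c ratio was 0.571 (0.378 to 0.872), which is not past 2-fold. Cul1, a scaffold of ubiquitin ligases, had a ratio of 0.322 (0.161 to 0.607), and 0.218 in the 2 sets. Fam19a2, a relative of Fam19a1, stood at 450 and 104.6 CPM, a ratio of 4.30 (2.34 to 8.51) and 2.89 in the 2 sets. Fstl4 and Fstl5, secreted proteins of the follistatin-like family, had ratios of 3.08 and 2.71, and 2.98 and 3.09 in the 2 sets. In the other Sim1 nuclei these 3 stood at 1.15, 1.18 and 1.22.

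Other KD genes took other values once the remaining 8 were left out. Hs6st3, a heparan sulfate 6-O-sulfotransferase gene, had a ratio of 0.284 among the 50 and 4.31 (1.32 to 22.2) in the 2 sets, so its direction turned. Ptprk went from 0.365 to 0.928. Cadps2, a regulator of dense-core vesicle release, kept a ratio of 0.288 in the 2 sets but stood at 0.742 in the first alone. Cdh9, Ndst4 and Gm26883 had ratios of 2.84, 2.77 and 3.10 among the 50 and 1.85, 1.89 and 2.42 in the 2 sets. Of the genes that mark the nuclei, KD ratios in the 2 sets were 1.12 for Foxp2, 1.01 for Cdh12, 0.876 for Robo2 and 0.760 (0.610 to 0.951) for Ntng1. Within each set the Ntng1 interval included 1, at 0.813 (0.626 to 1.06) in the first and 0.828 (0.540 to 1.29) in the second. The mix of the sets differed, with 7 and 2 nuclei in Ctrl and 10 and 7 in KD, so it cannot be told apart from level in the joint ratios.

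Between nuclei labelled Q153R and Ctrl, 23 of 940 measured genes were higher (2.45%) and 30 lower (3.19%), and of these 53 genes 21 were past 2-fold the same way in the 2 sets. The sets are part of the same nuclei, so the counts are not independent. Grik1 stood at 225 CPM in Q153R and 789 in Ctrl, a ratio of 0.286 (0.181 to 0.439) and 0.311 in the 2 sets. It was read in 0 of 8 Q153R nuclei of the first set and in 3 of 7 Ctrl nuclei. Ankrd28 and Pde7a, the latter a cyclic AMP phosphodiesterase gene, had ratios of 2.63 and 2.57, and 3.89 and 2.99 in the 2 sets. Cers6, a ceramide synthase gene, had a ratio of 0.327, and 0.408 in the 2 sets. Pld5, Srgap1 and Bend6 stood at 2.55, 2.48 and 2.67 and at 1.85, 1.85 and 2.15 in the 2 sets, and Gm26883 at 3.55 and 2.77. The mix of the sets differed too, with 7 and 2 nuclei in Ctrl and 8 and 8 in Q153R. In the first set alone Pld5 stood at 2.56 (1.46 to 4.68). Srgap1 stood there at 1.12 (0.354 to 3.62), Bend6 at 1.47 (0.467 to 5.01) and Gm26883 at 0.979 (0.225 to 4.25). Level and mix cannot be told apart in the joint ratios.

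Other genes that were low in Q153R among all 50 were within 2-fold of Ctrl in the 2 sets. Ptprd, a synaptic receptor phosphatase, Opcml, an adhesion protein, Celf2, an RNA-binding protein, and Csmd1 had ratios of 0.392, 0.393, 0.452 and 0.398 among the 50 and of 0.840, 1.18, 1.20 and 0.754 in the 2 sets. In the other Sim1 nuclei they stood at 1.14, 1.02, 1.09 and 0.992. The KD and Q153R comparisons share the 16 Ctrl nuclei, of which 7 lay outside the sets, so like values in both are not independent.

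**Figure D5:**
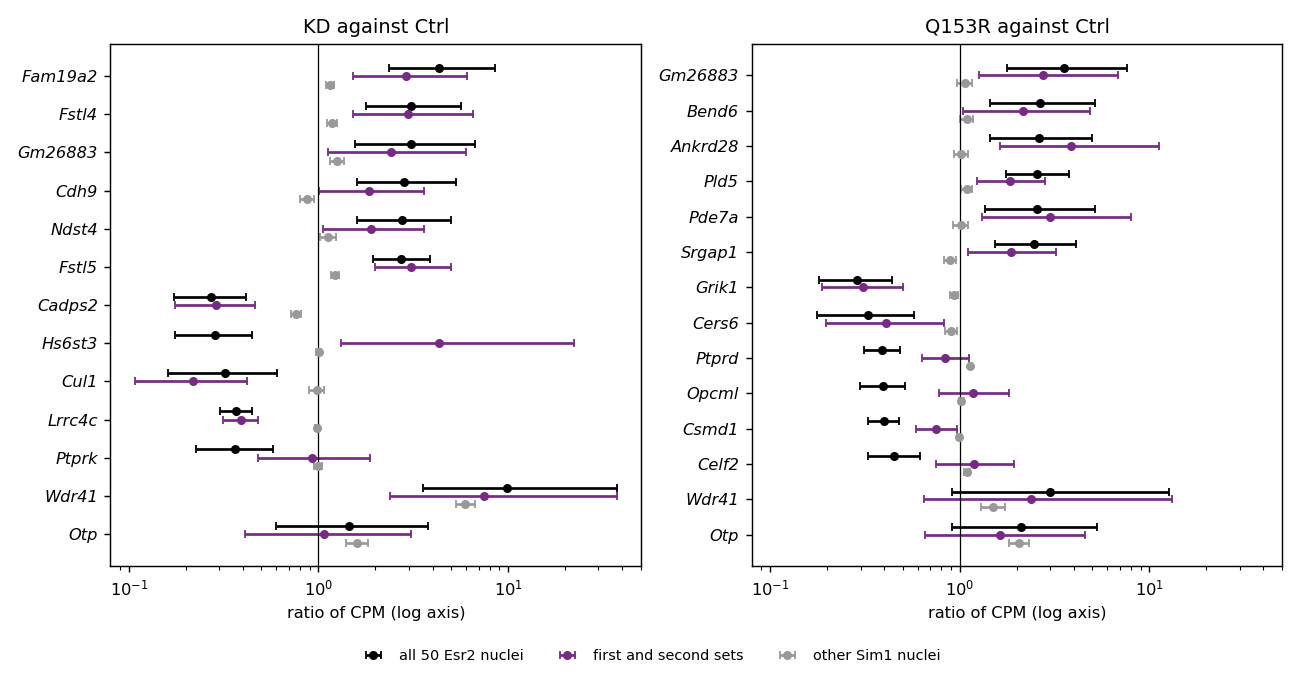
Ratio of CPM to Ctrl in KD (left) and Q153R (right) for genes named in the text, Wdr41 and Otp, on a log axis with exact conditional 95% intervals, in all 50 Esr2 nuclei, in the first and second sets, and in other Sim1 nuclei. Hs6st3 lies at 0.284 among the 50 and at 4.31 in the 2 sets, while Lrrc4c and Wdr41 keep their side.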

How the data were processed

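The deposited matrix holds raw UMI counts of 31053 genes and 3 hashtags. The submitters' processing notes list Cell Ranger 6.0.0 and mm10, and the matrix header names 7.0.0; how introns and strand were counted is not given in the sources used. Coordinates are from GENCODE vM21 on GRCm38 (30934 of 31053 IDs) and promoters from RefSeq.

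A tag was positive from a minimum set for each hashtag (61 UMIs for KD, 37 for Q153R, higher for Ctrl). Barcodes with more than 1 tag (1124) or none (129) were left out, and doublets within a pool were not removed. UMIs were summed over nuclei as CPM. Intervals, all at 95%, are exact Poisson for levels, Clopper-Pearson for shares and exact conditional for ratios and odds ratios. With 1 pool per genotype no test was run. Named genes are the 12 highest and 8 lowest by ratio, past 2-fold in every pool, and for pool comparisons the 6 highest and 6 lowest with UMIs in at least 10 nuclei and none holding over 20% of them. Clustering used 2000 variable genes, 30 principal components, 15 neighbours and leidenalg 0.10.2 at resolution 1, without rule and sex-linked genes; intervals came from SciPy 1.17.1. The counting scripts were tested on simulated counts. Members, lists and tests were chosen with earlier results of these data known. Some genes that the rule or the lists name are not reported here.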

Additional observations from a re-analysis of the deposited data

Results flagged for a closer look

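Several genes differed between pools in opposite directions within the Esr2 nuclei and within the other Sim1 nuclei, with both intervals away from 1. The differences between these ratios were not tested, and all rest on 1 pool per genotype. Only genes named for extreme ratios in the Esr2 nuclei and a short fixed list were searched. Over all measured genes the Esr2 interval lay above 1 for 135 and below 1 for 138 of 1023 in KD. In Q153R it did so for 113 and 115 of 940. In KD against Ctrl, Cdh9 had a ratio of 2.84 in the Esr2 nuclei and 0.871 in the other Sim1 nuclei, Rorb 1.56 and 0.817, and Hs3st3b1 7.86 (1.09 to 344) and 0.514. In Q153R against Ctrl, Hs3st3b1 had 9.003 (1.25 to 395) and 0.552, Rorb 1.95 and 0.822, Foxp2 1.54 and 0.885, Thsd7b 1.47 and 0.832, and Srgap1 2.48 and 0.892. Celf2 (0.452 and 1.09) and Ptprd (0.392 and 1.14) were lower in the Esr2 nuclei and higher in the others. Ctrl held 7 of the 8 nuclei outside the sets. In the sets alone the Q153R ratios were 0.919 for Foxp2, 0.895 for Thsd7b and 1.17 for Rorb, and the KD ratio of Rorb was 0.890. There Srgap1, Celf2 and Ptprd stood at 1.85, 1.20 and 0.840 in Q153R, and Cdh9 at 1.85 in KD. Hs3st3b1 rested on 9 UMIs in KD, 9 in Q153R and 1 in Ctrl. In the sets its ratios were 4.47 (0.620 to 196) in KD and 5.38 (0.746 to 236) in Q153R, and both intervals include 1.

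Barcodes left out for carrying more than 1 hashtag also held nuclei that met the gene rule: 14 of 1124 (1.25%, 0.683 to 2.08), against 0 of 129 barcodes with no hashtag, which allows up to 2.33%. Their median depth was 15041 UMIs, and they held Foxp2 at 758 CPM, Robo2 at 1453, Cdh12 at 844 and Gpc5 at 690.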

How the results depend on the processing

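No paired analysis was possible because 1 library holds 1 pool of each genotype and no replicates. The 20 genes named against the other nuclei stayed past 2-fold under all 12 alternatives run for them, as did the 20 against the Oxt nuclei except Kctd16 and Plcxd3 with at least 3 Esr2 UMIs. For the alternatives that left out 1 pool this was largely set by the choice of genes, which required 2-fold in each pool. Of the 12 genes named in each pool comparison, 7 (KD) and 6 (Q153R) stayed so with only the 2 sets.

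Counts of genes moved more, and the causes were not tested. Against the other nuclei, 1001 genes became 3023 with at least 3 Esr2 UMIs, 3118 after thinning to 2000 UMIs, 3476 with the stricter hashtag call, 2859 with 1 CPM added, and 1575, 1546 and 1526 without Ctrl, KD and Q153R. Against the Oxt nuclei, 337 became 593 with at least 3 Esr2 UMIs, 192 thinned, 191 with a minimum of 100 UMIs and 1733 with none. In KD, 83 became 43, 23, 29 and 5833 under those settings, 42 with the stricter call and 39 in the first set. In Q153R, 53 became 14 thinned, 15 with the minimum of 100 and 6024 with none, 25 in the 2 sets and 20 in the first set. The split moved too: 44.6% of KD genes were higher among all 50 and 73.1% in the 2 sets, and in Q153R 43.4%, 68.0% in the 2 sets and 15.9% with the stricter call.

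The share of 1.02% became 0.306% with at least 3 Esr2 UMIs and 0.616% with the stricter call, and the Q153R odds ratio became 2.89 with at least 3 Esr2 UMIs; the KD odds ratio lay between 0.916 and 2.78. With 5 CPM added, ratios turned direction for Hs6st3 in KD (3.96 in the 2 sets, 55.2 in the first), Ptprk in KD (3.11, first set), and in Q153R for Gm26883 (0.980, first set), Pde7a (0.934, stricter call), Ptprd (1.11, at least 3 Esr2 UMIs), Opcml (1.18, 2 sets) and Celf2 (1.19 in the 2 sets, 1.26 in the first). The settings on the sets, and the Oxt reference with fewer than 2 Esr2 UMIs, were chosen after seeing the data. Depth limits genes such as Mc4r, with 3 UMIs in all 50 nuclei.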

Other observations

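The 8 genes taken from the values above (Foxp2, Robo2, Cdh12, Thsd7b, Prr16, Ntng1, Rorb and Prlr) were counted within single nuclei. At least 6 of the 8 were read in 39 of the 50 Esr2 nuclei (78.0%), in 553 of 4854 other nuclei (11.4%) and in 65 of 154 Oxt nuclei (42.2%). This is a description, since the genes were picked from the same nuclei. Among each nucleus's 15 nearest neighbours, Esr2 nuclei made up a mean of 22.1% around an Esr2 nucleus, 12.5% around a nucleus with exactly 1 Esr2 UMI and 9.21% around an Oxt nucleus with 2 or more.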
